A study of Arabidopsis thaliana with 3 samples.

Results

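Photoreceptor, light signalling and circadian clock genes of Arabidopsis thaliana were described here from 5′ end sequencing of seedlings in white light and in light enriched in far-red. The genes were chosen by locus from a list of 55, which covers phytochromes, cryptochromes, phototropins, PIF transcription factors, the COP1 and SPA proteins, B-box proteins and the clock. The table held 28 of them among 6814 genes, and the other 27 were not analysed here. The 28 comprised 4 photoreceptors, 3 PIF genes, 3 COP1 and SPA genes, 5 further light signalling genes and 13 clock and photoperiod genes.

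The assay, PEAT (paired-end analysis of start sites of transcription), sequences the 5′ ends of transcripts. All 3 libraries came from total RNA of whole 10-day-old wild-type seedlings of the Col-0 accession, 1 kept in white light, 1 given 45 min and 1 given 90 min of far-red-enriched light. The study as a whole is about a microprotein made from ATHB2, a shade avoidance gene, and no mutant or overexpressor line is among these libraries. The labels give neither the number of seedlings in a library nor the time of day of harvest. With 1 library per condition there is no replicate check, and every difference below is one between libraries.

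The table, a selection of genes with reads in more than 1 start window, held 3440656 reads for white light, 4373900 for 45 min and 4125024 for 90 min. The light and clock genes took 12584, 15145 and 16731 of them, or 0.366%, 0.346% and 0.406%. In the same order of libraries (white light, 45 min, 90 min), which all lists of 3 values below follow, their median was 220, 242.5 and 186 reads, against 155, 188 and 182 over all genes. They were thus covered more deeply than the table as a whole in white light and at 45 min, and about as deeply at 90 min. As a check of the labelled tissue, 2 of 4 root markers were analysed, and PYK10, an abundant root and hypocotyl β-glucosidase, stood at 9884, 6834 and 7969 reads per 1000000 of the table. The other, BGLU21, a related β-glucosidase, stood at 213.3, 364.4 and 191.3, so the 2 root markers differed in direction at 45 min. The 5 green-tissue markers were not analysed here.

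Plants read the ratio of red to far-red light through phytochromes, which light switches between an inactive and an active form. Active phytochrome B removes or restrains PIF transcription factors, and far-red under a leaf canopy lowers its activity so that PIFs drive elongation. COP1 with SPA proteins marks light-promoting factors such as HY5 for degradation in darkness and shade. The clock is a loop of morning factors (CCA1 and LHY), day-time pseudo-response regulators and an evening complex of ELF3, ELF4 and LUX, and light resets it through the photoreceptors.

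Read level is given as RPM, reads scaled to a table total of 1000000, and differences between libraries as a log2 ratio after adding 1 RPM, which understates the change of low genes. No test applies to it, and a gene was counted when its level differed at least 2-fold. Intervals on ratios are exact 95% intervals from the read counts; because polymerase chain reaction reads carry no molecular identifiers, all intervals here cover counting error only. In whole seedlings, fewer cells of a type and less RNA per cell cannot be told apart.

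At 45 min, 2 of the 28 genes were at least 2-fold higher than in white light and 4 were at least 2-fold lower. Over all genes, 25.0% differed 2-fold at that time, 14.1% higher and 10.9% lower. At 90 min the counts were again 2 higher and 4 lower, against 28.2% of all genes, 15.8% higher and 12.4% lower. The share among the light and clock genes, 21.4% at both times, was thus no larger than that of the table as a whole. Their median log2 ratio was -0.21 at 45 min and -0.14 at 90 min, beside -0.03 and -0.00 over all genes. Both comparisons share the white light library.

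The genes past 2-fold were PHYB and FAR1 on the higher side at both times, and PKS1, BBX22 and GI on the lower side at both times. ELF4 was lower at 45 min alone and RVE8 at 90 min alone. The other 21 genes stayed within 2-fold at both times, from -0.97 to 0.83 on the log2 scale at 45 min and from -0.90 to 0.97 at 90 min. Over all genes, 10.4% were past 2-fold higher at both times, 4.55% lower at both and 62.2% within 2-fold at both.

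**Figure D1:**
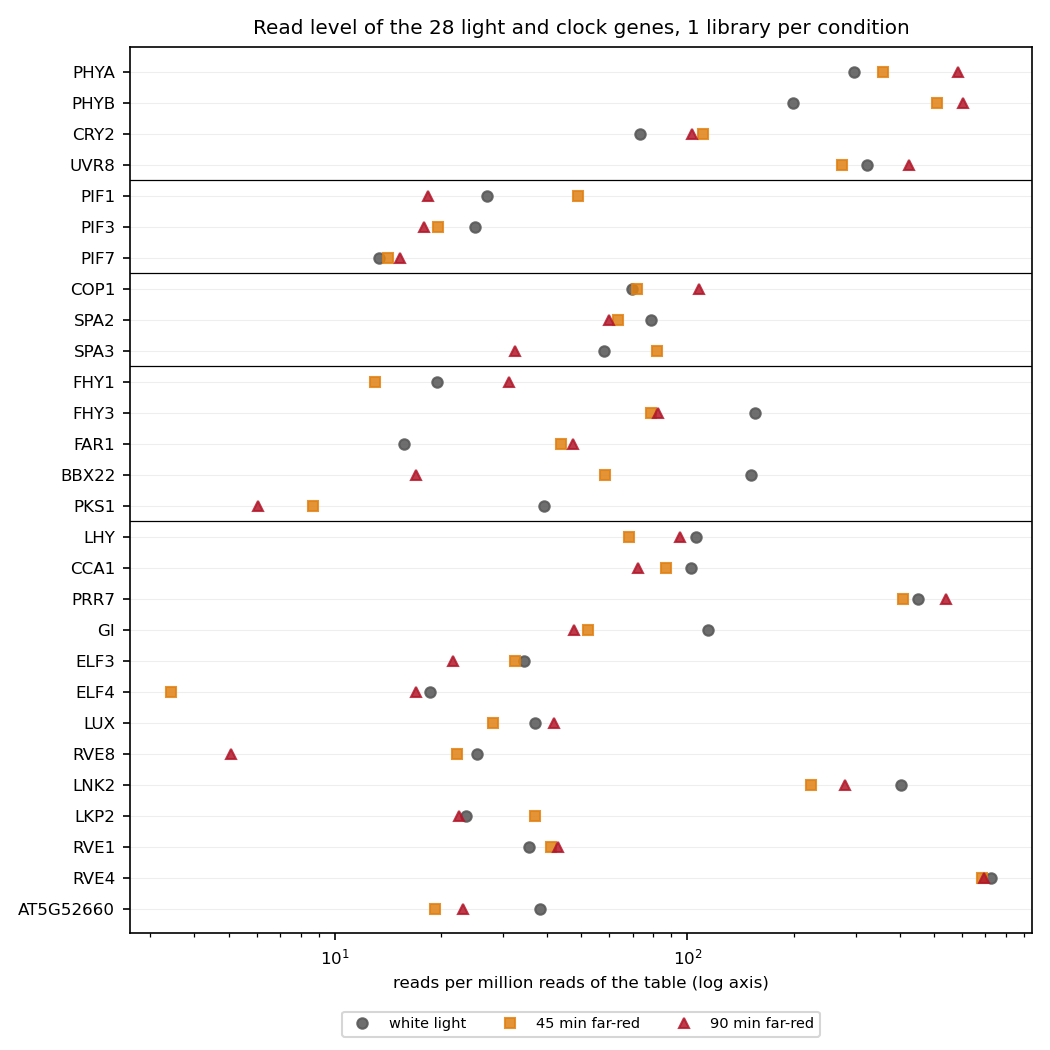
Read level of each of the 28 genes (rows, grouped by role from photoreceptors to clock genes) in reads per 1000000 on a log axis, with 1 point per library. PHYB and FAR1 have both far-red points to the right of white light, while BBX22, PKS1 and GI have both to the left; 21 of the other rows stay within 2-fold of white light.

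Among the photoreceptors, PHYB (AT2G18790), the main sensor of shade, had 684, 2225 and 2490 reads. These are 198.8, 508.7 and 603.6 RPM, a ratio to white light of 2.56 at 45 min (95% exact interval 2.35 to 2.79) and 3.04 at 90 min (2.79 to 3.31). Both far-red libraries were thus above white light and close to each other. PHYA (AT1G09570), the phytochrome that is active in far-red, had 1022, 1566 and 2409 reads. Its log2 ratio was 0.27 at 45 min and 0.97 at 90 min, just inside 2-fold at the later time. CRY2 (AT1G04400), a blue light receptor, stood at 73.2, 110.9 and 103.03 RPM, and UVR8 (AT5G63860), the UV-B receptor, at 323.2, 274.6 and 425.9 RPM. At 90 min all 4 photoreceptor genes were above white light, by 0.40 to 1.60 on the log2 scale, and at 45 min 3 of 4 were. Of all 6814 genes, 3404 were higher at the later time and 3319 at the earlier. Reads of the first start window (defined below) did not all share this rise. There CRY2 stood at 0.643 and then 0.770 times white light, UVR8 at 0.579 and 0.998, and PHYA at 0.894 and 2.54. PHYB was higher both times, at 2.40 and 2.53. LKP2, a blue light receptor counted here with the clock, had ratios of 1.57 and 0.958 in all reads.

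The PIF genes encode the basic helix-loop-helix factors that phytochromes restrain. PIF7 (AT5G61270), a PIF with a leading role in shade responses, had 46, 62 and 63 reads and differed little between libraries in level. PIF3 (AT1G09530) had 86, 86 and 74 reads, or 25.0, 19.7 and 17.9 RPM. PIF1 (AT2G20180, listed as PIL5), a repressor of seed germination in darkness, was highest at 45 min, with 93, 214 and 76 reads. Its level at 45 min was 1.81 times that in white light (95% exact interval 1.41 to 2.33), and that at 90 min was 0.682 times (0.497 to 0.933), so the far-red libraries lay on opposite sides of white light in all reads. In the first window alone both lay above it, at 22.6 and 7.92 times.

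COP1 (AT2G32950), the ubiquitin ligase of the pathway, stood at 69.8, 71.8 and 107.9 RPM. SPA2 (AT4G11110), one of its SPA partners, stood at 79.05, 63.6 and 59.9 RPM. SPA3 (AT3G15354), another, had 200, 358 and 134 reads, and its level at 90 min was 0.397 times that at 45 min (95% exact interval 0.323 to 0.485). In the first window alone SPA3 went the other way, at 1.94 times the 45 min level. None of the 3 passed 2-fold against white light.

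FHY3 and FAR1 are related transcription factors, derived from transposases, that act in phytochrome A signalling, and their levels differed in opposite directions. FAR1 (AT4G15090) had 54, 191 and 195 reads, with ratios to white light of 2.78 at 45 min (95% exact interval 2.05 to 3.84) and 3.01 at 90 min (2.22 to 4.15). FHY3 (AT3G22170) had 534, 344 and 341 reads, with log2 ratios of -0.97 and -0.90, just inside 2-fold. FHY1 (AT2G37678), which carries phytochrome A into the nucleus, had 67, 57 and 129 reads and stood at 2.40 times its 45 min level at 90 min (1.74 to 3.34).

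BBX22 (AT1G78600, listed as LZF1), a B-box factor that promotes light responses together with HY5, differed most of all 28 genes at 90 min. It had 520, 256 and 70 reads, or 151.1, 58.5 and 16.97 RPM. The ratio to white light was 0.387 at 45 min (95% exact interval 0.332 to 0.451) and 0.112 at 90 min (0.0862 to 0.144), so each library was below the one before it. PKS1 (AT2G02950), a phytochrome-binding protein of phototropism, had 135, 38 and 25 reads, or 39.2, 8.69 and 6.06 RPM. Its ratio was 0.221 at 45 min (0.150 to 0.319) and 0.154 at 90 min (0.0965 to 0.238).

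In the clock group, 11 of 13 genes were below white light at 45 min and 10 of 13 at 90 min, but only 2 at each time by 2-fold. Over all genes, 3495 of 6814 were below white light at 45 min and 3410 at 90 min. The median log2 ratio of the 13 was -0.23 and -0.15.

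Of the morning factors, LHY (AT1G01060) had 364, 299 and 392 reads, or 105.8, 68.4 and 95.03 RPM. Its level was lowest at 45 min, at 0.646 times white light (95% exact interval 0.553 to 0.755), and at 90 min the interval included 1 (ratio 0.898, 0.777 to 1.04). CCA1 (AT2G46830), its close relative, had 353, 381 and 299 reads, with ratios of 0.849 and 0.706. LHY and CCA1 therefore did not share an order of libraries. LNK2 (AT3G54500), a transcriptional coactivator of the clock, had 1383, 977 and 1153 reads, with log2 ratios of -0.84 and -0.52. PRR7 (AT5G02810), a repressor of LHY and CCA1, had 1547, 1785 and 2229 reads and stayed within 0.26 of white light on the log2 scale.

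The REVEILLE genes encode Myb-like factors related to LHY and CCA1. RVE8 (AT3G09600), an activator of evening genes, had 87, 97 and 21 reads, and its level at 90 min was 0.201 times that in white light (95% exact interval 0.119 to 0.327). The white light and 45 min libraries differed little for it, at 25.3 and 22.2 RPM, with 5.09 RPM at 90 min. In the first window alone RVE8 had 11 reads in white light and 19 at 90 min. Their ratio was 1.44, with a 95% exact interval that included 1 (0.652 to 3.35). RVE4 (AT5G02840, listed as LCL1), a close relative of RVE8 with 2497, 2996 and 2863 reads, differed by at most 0.08 on the log2 scale. RVE1 (AT5G17300), which links the clock to auxin, had log2 ratios of 0.21 and 0.27. AT5G52660, unnamed in the gene table, had 131, 84 and 95 reads and log2 ratios of -0.95 and -0.70.

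GI (AT1G22770), an evening protein that joins the clock to flowering, had 393, 229 and 197 reads, or 114.2, 52.4 and 47.8 RPM. Its ratio to white light was 0.458 at 45 min (95% exact interval 0.388 to 0.541) and 0.418 at 90 min (0.351 to 0.497). ELF4 (AT2G40080) of the evening complex was low at 45 min alone, with 64, 15 and 70 reads and a ratio of 0.184 at that time (0.0976 to 0.327). The other members of that complex did not share this pattern: ELF3 (AT2G25930) had 118, 142 and 89 reads, and LUX (AT3G46640, listed as PCL1) 127, 123 and 173. LKP2 (AT2G18915), a blue light receptor of the ZEITLUPE family, had 81, 162 and 93 reads.

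**Figure D2:**
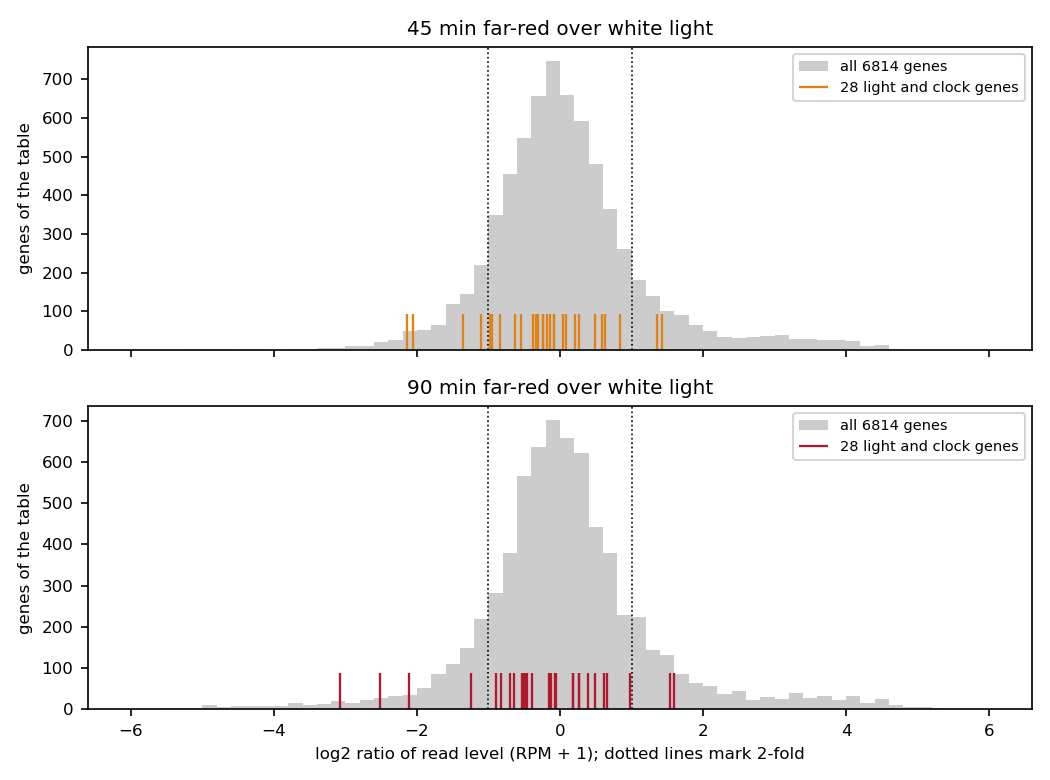
Histograms of the log2 ratio of read level over all 6814 genes (grey), for 45 min far-red over white light above and 90 min over white light below, with a coloured tick for each of the 28 light and clock genes. The ticks spread over the centre of the grey distribution, and 6 lie outside the dotted 2-fold lines in each panel.

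The far-red libraries were also compared with each other. At 90 min, 2 of 28 genes were at least 2-fold higher than at 45 min (ELF4 and FHY1) and 4 at least 2-fold lower (BBX22, RVE8, PIF1 and SPA3), against 17.0% of all genes, 8.66% higher and 8.38% lower. ELF4 had the largest difference, 2.02 on the log2 scale, and RVE8 and BBX22 the largest in the other direction, -1.93 and -1.73. The median over the 28 genes was 0.06, beside 0.03 over all genes.

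For every gene the table pairs 1 start window, called the first here, with 1 or more second windows along the coding sequence. The 28 genes had 42 second windows, 1 in 17 genes and 2 to 4 in the other 11. The median second window left 35.6% of the coding sequence downstream, against 48.0% over the 10220 second windows of all genes. In 15 of the 42 (35.7%) less than 25% was left, against 21.0% over all genes. The authors' deposited table lists a protein domain downstream of 18 of the 42 windows (42.9%), in 12 genes, and of 57.0% of all second windows.

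Where the windows lie differed between members of a family. The PHYA window left 659 of 3369 bases, with the histidine kinase-like domains of the C-terminal output region listed in the authors' deposited table. That of PHYB left 246 of 3519 bases and no listed domain. The authors' deposited table lists the FAD-binding domain downstream of both CRY2 windows, in full for that with 1255 of 1839 bases left and in part, with an overlap of 60, for that with 880 left. CCA1 and LHY were also unlike each other. The CCA1 window left 1739 of 1827 bases and, per the authors' deposited table, most of the Myb-like domain, and the LHY window left 100 of 1938 bases and none. The window of SPA2 lay 17 bases into a coding sequence of 3111, and a LUX window left 5 of 972 bases, so both lie at an end of the coding sequence.

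**Figure D3:**
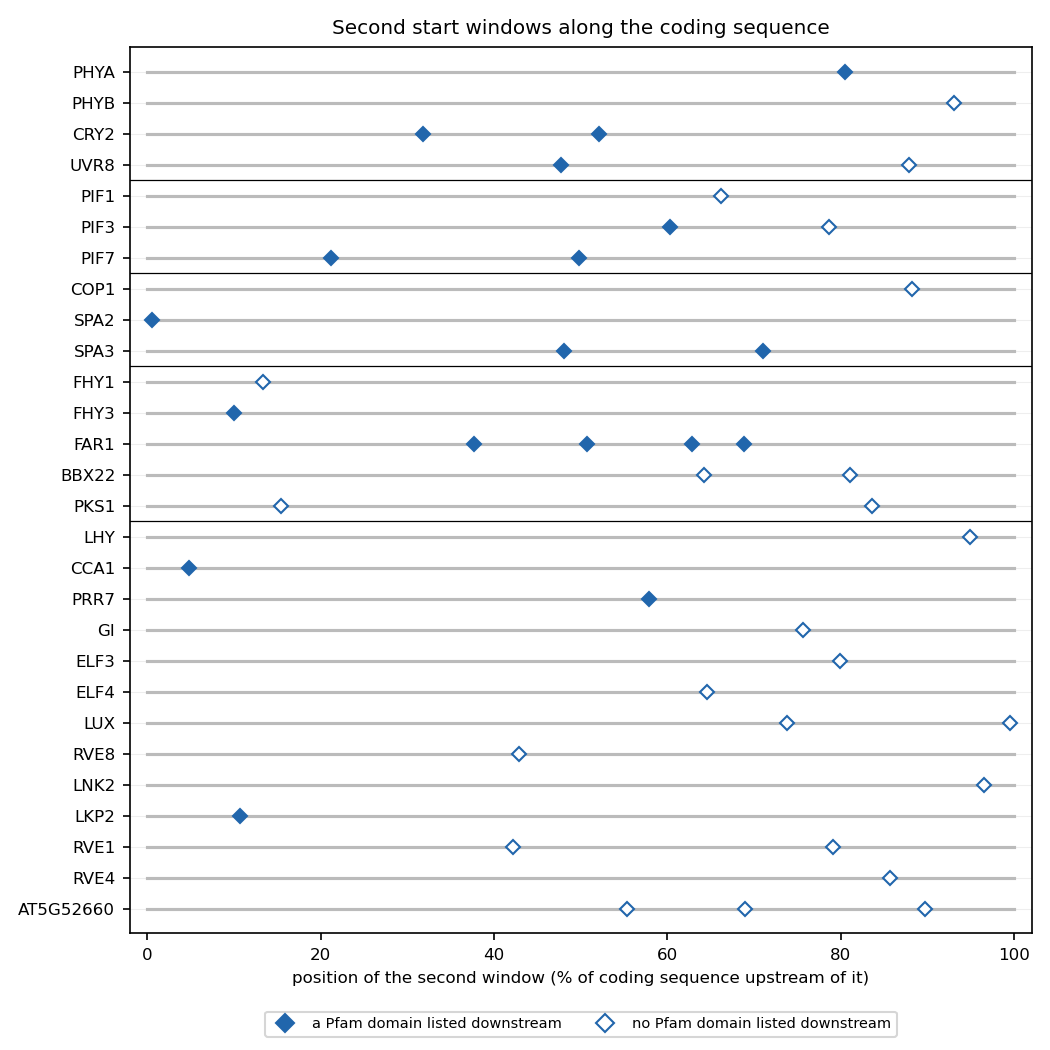
Position of each of the 42 second windows as the percentage of the coding sequence upstream of it, with 1 row per gene; filled diamonds have a Pfam domain listed downstream and open diamonds have none. Windows of SPA2 and CCA1 lie at the left end, and those of LHY, LNK2, PHYB and LUX at the right end.

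How reads divided between windows was measured as the second-window share, which is second-window reads as a percentage of all reads in either kind of window. Libraries were compared with Fisher's exact test (two-sided, Benjamini-Hochberg adjusted over every gene that had 20 or more window reads in each library). Calls required a change of 10 points or more and an adjusted p below 0.05. The test compares reads of 2 libraries and not conditions.

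Pooled over the 28 genes, this share came to 33.7%, 32.4% and 32.9%, with 95% Wilson intervals of 32.7% to 34.6%, 31.5% to 33.3% and 32.01% to 33.7%. Over all genes it was 34.3%, 37.3% and 38.99%. The pooled value weights each gene by its window reads, and RVE4 alone gave 2127 of 9291, 2731 of 10232 and 2767 of 11954. The median share of the light and clock genes with 20 or more window reads was not flat, at 43.3%, 29.6% and 40.5%. It rests on 28, 26 and 27 genes, since PKS1 and ELF4 fell short at 45 min and RVE8 at 90 min. Over all genes the median was 38.1%, 36.4% and 41.4%. Single genes differed widely in either direction.

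At 45 min, 18 of 26 genes tested were called, 7 higher and 11 lower, against 65.9% of all genes (31.9% higher and 34.1% lower). At 90 min, 18 of 27 were called, 8 higher and 10 lower, against 68.1% (37.6% higher and 30.6% lower). Between the far-red libraries 16 of 25 were called at 90 min, 9 higher and 7 lower, against 57.4% of all genes (34.6% and 22.8%). The members' shares of 69.2%, 66.7% and 64.0% were thus near those of the table. The chi-square statistic was also divided by an inflation factor. This was the median chi-square of 90 against 45 min in genes of like depth, over the median for counting error alone. It ran from 20.6 to 39.01 depending on depth, and it includes any true change between the far-red times. After that scaling, 0 genes of the 28 were called at either time. At an unadjusted p under 0.05, that scaled chi-square test passed 3 of 26 and 3 of 27 members, against 6.87% and 8.16% of all genes. With that factor applied, none of the differences from white light below passed the threshold.

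**Figure D4:**
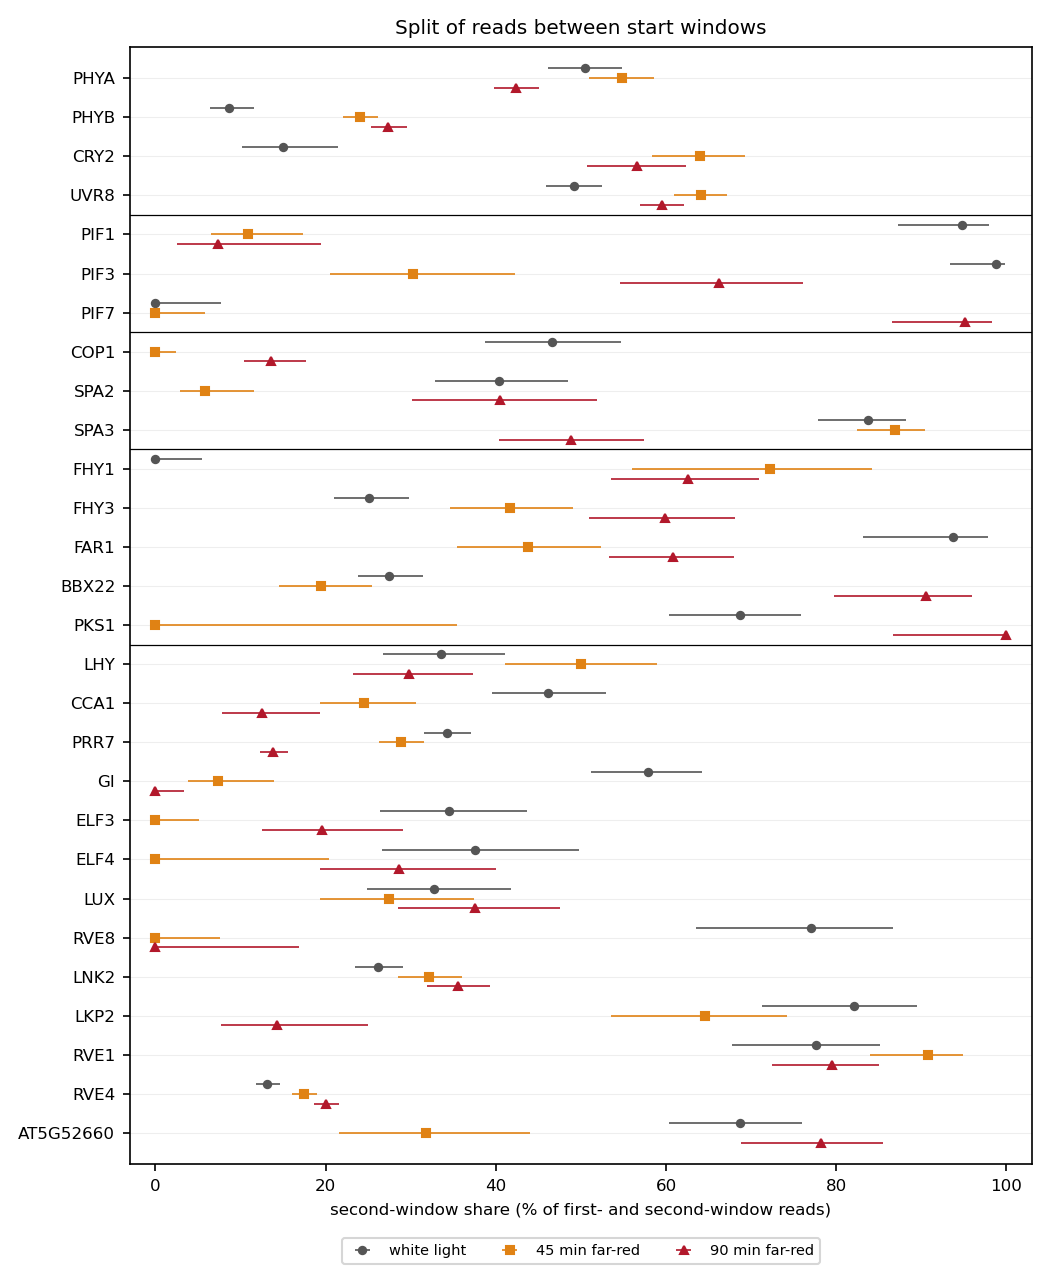
Second-window share of each of the 28 genes in percent, with 1 point per library and 95% Wilson intervals (counting error only). PIF1 and PIF3 are near the right edge in white light and far left of it at 45 min, CRY2 and FHY1 show the opposite order, and PIF7 is at 0 in white light and at 45 min and near the right edge at 90 min.

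Against white light, 5 genes were called higher at both times, namely PHYB, CRY2, UVR8, FHY1 and FHY3, of 25 tested at both. Over all genes tested at both times, 22.1% were called higher at both. The PHYB share was 8.67% (39 of 450), 24.1% (398 of 1654) and 27.4% (470 of 1718), with 95% Wilson intervals of 6.40% to 11.6%, 22.1% to 26.2% and 25.3% to 29.5%. Its second-window reads were 8.03 times and 10.1 times the white light level at 45 and 90 min, and its first-window reads 2.40 and 2.53 times. Both windows were thus higher in far-red, the second by more. By Fisher's exact test the PHYB share differed by 15.4 points at 45 min (adjusted p = 1.20e-13) and 18.7 points at 90 min (adjusted p = 2.36e-18).

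CRY2 showed a larger change, with a share of 14.9% in white light (23 of 154), 64.0% at 45 min (190 of 297) and 56.6% at 90 min (158 of 279). The adjusted p by Fisher's exact test was 2.22e-23 and 1.98e-17. Of its second windows, the one with 1255 bases left had 0, 69 and 89 reads. The one with 880 bases left had 23, 121 and 69. Per 1000000 reads, the second windows of CRY2 together stood at 6.50 and 5.73 times white light, and the first at 0.643 and 0.770 times, so its higher read level in far-red was not seen in the first window. The UVR8 share was 49.2%, 64.1% and 59.6%, called at both times, but with its most-read second window alone the change was 6.27 and 8.22 points, below the minimum of 10.

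All 67 window reads of FHY1 in white light lay in the first window, and 0 of 67 allows up to 4.48% in the second. Here and below, the limit for a count of 0 is 3 reads over the total, which is slightly below the upper Wilson bound (5.42% for FHY1). At 45 min it had 10 and 26, and at 90 min 43 and 72, shares of 72.2% and 62.6%. The second window lies 81 bases into a coding sequence of 609. For FHY3 the share was 25.1%, 41.7% and 59.8%, with 277, 102 and 49 first-window reads while the second window held 93, 73 and 73; relative to white light the first window was at 0.290 and 0.148 times and the second at 0.617 and 0.655 times. FHY3 had 30.7%, 49.1% and 64.2% of its reads outside both windows. Its second window lies 253 bases into the coding sequence of 2520, and the authors' deposited table lists the FAR1 DNA-binding and transposase domains downstream of it.

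PHYA, the photoreceptor not called, had shares of 50.5%, 54.8% and 42.4%, and differed by -12.4 points between 90 and 45 min (Fisher's exact test, adjusted p = 7.07e-07).

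Called lower at both times were 8 genes, namely PIF1, PIF3, COP1, FAR1, CCA1, GI, ELF3 and LKP2, of the same 25. Over all genes 22.0% were called lower at both. The calls nearest the threshold of Fisher's exact test were LKP2 at 45 min (adjusted p = 0.0345) and ELF3 at 90 min (adjusted p = 0.0346). For PIF1, 4 reads lay in the first window and 72 in the second in white light, 115 and 14 at 45 min, and 38 and 3 at 90 min. The share was 94.7% (95% Wilson interval 87.2% to 97.9%), 10.9% (6.58% to 17.4%) and 7.32% (2.52% to 19.4%), so the first window held most of the window reads in far-red. Of all PIF1 reads, 39.7% at 45 min and 46.1% at 90 min lay outside both windows. The adjusted p by Fisher's exact test was 3.93e-34 and 1.14e-21. PIF1 overlaps another annotated gene, AT2G20170, and whether reads were counted by strand is not given in the sources used here.

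PIF3 had 1 first-window read against 80 second-window reads in white light, 46 against 20 at 45 min and 24 against 47 at 90 min. The share was 98.8%, 30.3% and 66.2%. The most downstream window, with 336 of 1575 bases left and no listed domain, held all 80 of the white light reads. At 90 min, 31 of the 47 came from the window with 625 bases left, downstream of which the authors' deposited table lists the helix-loop-helix domain. PIF7 was called at 90 min alone. In white light and at 45 min all of its 46 and 62 window reads lay in the first window, a limit of 6.52% and 4.84% by 3 reads over the total and upper Wilson bounds of 7.71% and 5.83%. At 90 min 58 of 61 lay in the second windows, a share of 95.1%. Its read level hardly differed between libraries, so the reads lay in other windows at about the same total. PIF7 overlaps AT5G61260.

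The first window of COP1 held 78, 153 and 298 reads and its second 68, 0 and 47. The shares were 46.6%, 0% (0 of 153 reads, a limit of 1.96% by 3 reads over the total and an upper Wilson bound of 2.45%) and 13.6%. Of all COP1 reads, 39.2%, 51.3% and 22.5% lay outside both windows. SPA2 was called at 45 min alone and SPA3 at 90 min alone. The SPA2 share was 40.4%, 5.83% and 40.5%, and the SPA3 share 83.7%, 86.9% and 48.8%. SPA2 had 46.3%, 56.8% and 70.0% of its reads outside both windows. SPA3 overlaps AT3G15350, which the table also holds.

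For FAR1 the share was 93.8% (45 of 48), 43.8% (56 of 128) and 60.8% (101 of 166). Its 4 second windows did not move alike. The window with 773 of 2484 bases left held 34 of the 45 second-window reads in white light, 16 of 56 at 45 min and 0 at 90 min, while the other 3 together held 11, 40 and 101. The authors' deposited table lists a SWIM zinc finger downstream of all 4, in part only (an overlap of 72) for that window and in full for the other 3. For BBX22 the first window held 377, 162 and 5 reads and the second windows 143, 39 and 48. Its share was 27.5%, 19.4% and 90.6%, so at 90 min most of its window reads lay in the second windows, while 24.3% of all BBX22 reads lay outside both. For PKS1, which overlaps AT2G04465, the first window held 42, 7 and 0 reads and the second windows 92, 0 and 25. With 7 window reads at 45 min it was not tested there. PKS1 was called at 90 min, where its share was higher by 31.3 points (Fisher's exact test, adjusted p = 5.39e-04).

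Of 12 clock genes tested at 45 min, 2 were called higher (LHY and RVE1) and 6 lower, against 31.9% and 34.1% of all genes. Of 12 tested at 90 min, 0 were called higher and 5 lower, against 37.6% and 30.6%. The LHY share was 33.5% (55 of 164), 50% (58 of 116) and 29.7% (47 of 158), with 95% Wilson intervals of 26.8% to 41.1%, 41.05% to 58.95% and 23.2% to 37.3%. The first window of LHY held 109, 58 and 111 reads and stood at 0.419 times white light at 45 min and 0.849 times at 90 min, while the second window stood at 0.830 and 0.713 times. At 45 min the 95% exact interval lay below 1 for the first window (0.299 to 0.581) and included 1 for the second (0.564 to 1.22). By Fisher's exact test the share differed by 16.5 points at 45 min (adjusted p = 0.00983) and by -3.79 points at 90 min (adjusted p = 0.527). In another LHY isoform with equal reads, the 45 min change fell short of the minimum for a call.

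CCA1 differed from LHY in direction at 45 min, with a share of 46.2% (96 of 208), 24.6% (55 of 224) and 12.5% (16 of 128). Its first window stood at 1.19 and 0.834 times white light, and its second at 0.451 and 0.139 times. The adjusted p by Fisher's exact test was 6.83e-06 at 45 min and 1.88e-10 at 90 min. PRR7, measured with at least 1118 window reads in each library, had shares of 34.3%, 28.9% and 13.9%, and was called at 90 min alone (Fisher's exact test, adjusted p = 1.37e-35). Its first-window reads at 90 min were 1.56 times the white light level, and its second-window reads 0.481 times.

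GI had 125 of 216 window reads in its second window in white light, 8 of 108 at 45 min and 0 of 110 at 90 min, which allows a share of up to 2.73%. Its first window held 91, 100 and 110 reads. The lower GI level in far-red was therefore not seen in the first window, where the level was 0.864 and 1.01 times that in white light. ELF3 had shares of 34.5%, 0% (0 of 72 reads, which allows up to 4.17%) and 19.5%, and it overlaps 2 other annotated genes. Its first window held 74, 72 and 70 reads, while 4.24%, 49.3% and 2.25% of all ELF3 reads lay outside both windows. RVE8 had 37 of 48 window reads in the second window in white light, 0 of 47 at 45 min and 0 of 19 at 90 min, which allow shares of up to 6.38% and 15.8%; at 90 min it was not tested. Of all RVE8 reads, 44.8%, 51.5% and 9.52% lay outside both windows. LKP2 had shares of 82.1%, 64.6% and 14.3%, and overlaps AT2G18917. Outside both of its windows lay 17.3%, 51.2% and 32.3% of its reads.

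The remaining clock genes were closer to white light or were called at 1 time. RVE4, the deepest with at least 2127 window reads in a library, had shares of 13.2%, 17.5% and 20.1%, and LNK2 26.2%, 32.1% and 35.5%, all below the minimum of 10 points. RVE1 had shares of 77.6%, 90.8% and 79.5%, and AT5G52660 68.7%, 31.7% and 78.3%. ELF4, with 15 window reads at 45 min, all in the first window, was tested at 90 min alone and not called. The LUX share hardly differed in sum (32.8%, 27.5% and 37.5%), but its second windows had opposite orders of libraries. The one with 255 bases left held 38, 11 and 1 reads, and the one with 5 bases left 0, 14 and 35. LUX, LNK2 and RVE1 each overlap another annotated gene.

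Reads of these genes that fell outside both windows moved with the libraries as well. They made up 26.2%, 32.4% and 28.6% of the members' reads, against 15.2%, 17.4% and 16.7% over all genes. At 45 min the percentage was higher than in white light in 23 of 28 genes and lower in 3, and over all genes it was higher in 4479 of 6814. More than 40% of the reads lay outside in 6, 12 and 9 of the 28 genes, against 734, 1260 and 890 of all 6814. LHY had 54.9%, 61.2% and 59.7% of its reads outside the windows. These reads count in the read level and not in the second-window share, and their part in the differences above was not tested.

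The same pathways were also read from 58 further genes chosen from general knowledge, of which 23 were in the table. At 45 min 3 were at least 2-fold higher than in white light and 3 lower, and at 90 min 6 were higher and 2 lower, against the 25.0% and 28.2% of all genes past 2-fold. Higher at both times were PIL1 and HFR1, helix-loop-helix genes known to be induced by shade, and CKB3, a regulatory subunit of casein kinase 2. PIL1 had 14, 202 and 307 reads, HFR1 620, 1704 and 3146, and CKB3 27, 109 and 169. CKB4, another such subunit, was lower at both times, with 184, 73 and 64 reads. CIB1, a partner of CRY2, had 157, 342 and 895 reads and was higher past 2-fold at 90 min alone. So was BBX29, with 144, 283 and 376 reads, while BBX18 was lower past 2-fold at 90 min alone, with 193, 181 and 88. PIL2, a PIF relative, was lower at 45 min and higher at 90 min, with 38, 13 and 145 reads. The median log2 ratio of the 23 genes was 0.12 at 45 min and 0.03 at 90 min. Of COP10 and 4 subunits of the COP9 signalosome, COP10 alone passed 2-fold against white light, at 45 min, with 44, 21 and 47 reads. The second-window share of these genes was called in 14 of 20 tested at 45 min and 11 of 22 at 90 min, against 65.9% and 68.1% of all genes.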

How the data were processed

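PEAT libraries of wild-type seedlings, 1 per light treatment, were grouped by the treatment in the labels. The deposited table holds unscaled read counts of each transcript and of its first and second start windows, per the file headers, with coding lengths, Pfam domains, and the authors' own ratios (fold changes) and p-values, which entered no call here. Per the submitters' processing notes, FastQC, cutadapt, HISAT2 2.0.5, SAMtools 0.1.19 and bedtools 2.17.0 were used, with TAIR9 and TAIR10 named as builds; window width and the rule of selection are not given in the sources used here. The fewest reads of a transcript were 100 over the 3 libraries, so table totals are not library depth.

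The transcript with the most reads stood for each gene, with equal isoforms resolved to the lowest number, and its second windows were summed. Levels were scaled to 1000000 reads of the table total, except in the setting below with first-window reads alone, which used the first-window total. Fisher's exact tests ran in scipy 1.17.1 over the whole table; count models that need replicates were not used. Scripts were tested on simulated data with counting error only, which does not show how many calls in these libraries are false. All 28 genes matched RefSeq's gene table (TAIR10.1) by locus, and 9 overlap another annotated gene, whose reads may be mixed with theirs. A motif search planned for promoters was not run, since no sequence was used here.

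Every gene of the list in the table is named. Values in all libraries are given for LHY, for genes past 2-fold with at least 50 reads in both libraries together, and for genes called in the same direction at both times. The genes, the further list and the tests were chosen with earlier results of these data known.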

Additional observations from a re-analysis of the deposited data

How the results depend on the processing

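No paired analysis was possible because each condition has 1 library, and for the same reason no replicate could be left out. The count of genes past 2-fold was 6 in each of the 3 pairs of libraries and was the same with median-of-ratios scaling, a table total without the 10 genes with the most reads, pseudocounts of 0.1 and 5 RPM, and a minimum of 50 reads. Lowest-numbered isoforms gave 7 at 45 min, since FHY3 then passed (log2 ratio -1.16), and 6 in the other pairs. First-window reads alone gave 13 in each pair, with 5, 4 and 5 of the 6 genes kept, while the percentage of all genes past 2-fold was then 44.9%, 45.6% and 35.9%. That setting scaled levels to first-window totals, unlike the first-window ratios given above, which were scaled to the table total. Under that setting the sign of the log2 ratio turned in 9 of 28 genes at 45 min and 12 of 28 at 90 min. Some turns depend on the scaling. RVE4 at 45 min turned to 0.05, but its first window stood at 0.960 times white light when scaled to the table total. Of ratios past 2-fold 3 turned, to 0.14 for GI and 0.58 for RVE8 at 90 min against white light and 0.94 for SPA3 at 90 against 45 min; it leaves out second-window reads by construction.

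The counts of called second-window shares were 18, 18 and 16. The chi-square test scaled by the far-red pair gave 0 at 45 min and 0 at 90 min, where 16 and 11 genes of the whole table passed; the smallest adjusted p of a member by that test was 0.516 (PIF1) and 0.571 (GI). A minimum change of 20 points gave 8 for 90 against 45 min. The other settings gave 12 to 22 at 45 min, 14 to 21 at 90 min and 15 to 20 between the far-red libraries. LUX passed at both times with its most-read second window alone, by -18.5 and -31.1 points, and UVR8 did not. PKS1 and ELF4 at 45 min were left out by the minimum of 20 window reads; with a minimum of 1, 20 of 28 genes were called at that time.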

Other observations

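LHY is listed with 5 isoforms. The second-window share lay between 33.5% and 49.1% in white light, between 50% and 80.6% at 45 min and between 20.1% and 44.8% at 90 min, depending on the isoform. The order of the libraries was not the same in all of them, but 45 min was the highest in each. CRY2 is listed with 2 isoforms, and the less-read one had shares of 37.2%, 77.7% and 74.5%. PIF3 at 45 min had a share of 30.3% in the isoform with 86 reads and 64.5% in that with 62 reads.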
